A study of Ovis aries with 9 samples.

Results

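The genes of DNA replication and mitosis were examined in sheep ovaries as a set of 40 gene symbols, named for their function. Of these, 39 had a row among the 27174 rows of the count table, and all 39 passed the filter on low counts that left 16871 rows for testing. TYMS, which codes for thymidylate synthase, had no row under its symbol, but the row LOC100037674 carries its gene number and is given beside the others. Whole ovaries of 9 ewes were sequenced, with 1 library per ewe and 3 ewes per group. Dorset ewes (D4, D5 and D6), labelled wild type, were the low-fecundity controls, and Small Tail Han ewes had the genotype FecBBFecBB (Han BB: W1, W2 and W4) or FecB+FecB+ (Han ++: W6, W7 and W8) at the FecB mutation of BMPR1B, a receptor for bone morphogenetic proteins. All were adult, and all had been given fluorogesterone acetate sponges and pregnant mare serum gonadotropin to synchronize estrus, with the ovaries, bearing ovulation points, taken after a later spontaneous estrus. Dorset and Han ewes differ in breed as well as in fecundity, so that only Han BB against Han ++ compares genotypes within a breed.

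A dividing cell copies its DNA once and then separates the copies. In G1, CDC6 helps to load the MCM helicase on replication origins, and cyclin E with its kinase starts S phase, in which the helicase, the sliding clamp PCNA and ribonucleotide reductase support synthesis. Transcription factors such as FOXM1 then raise the genes of mitosis, and cyclin B with CDK1 drives entry, the kinetochore and its checkpoint govern the attachment of chromosomes, and kinesins and the midzone complete separation. In the ovary of an adult ewe much of the division takes place in granulosa cells of growing follicles, with more in theca, endothelium and the young corpus luteum.

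Between 10803913 and 20992535 reads were counted per library, and the common coefficient of variation between animals was 0.472. Levels are given as CPM, counts scaled to a common library total after edgeR's TMM scaling, and they are compared between ewes but not between genes, since counts grow with gene length. The row LOC101101865 took 14.9% of the reads of D4, 7.69% of those of W8 and 0.0107% of those of D6. Libraries W4 (Han BB) and D6 (Dorset) lay on the same side of their group mates in 80.1% of all tested genes, so the main counts are also given without them. Follicle markers were present: FSHR, the receptor for follicle-stimulating hormone, ranged from 5.42 to 14.4 CPM, INHA, the inhibin alpha subunit, from 13.6 to 95.2 CPM, and AMH, the anti-Müllerian hormone of small growing follicles, from 0.335 to 2.40 CPM. In whole ovaries, fewer dividing cells and less RNA per dividing cell cannot be told apart.

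The row named KIF23 could not be read as the level of KIF23, a kinesin of the central spindle that acts in cytokinesis. It held 17950, 23995 and 13126 reads in D4, D5 and D6, 36067, 23010 and 10889 in W1, W2 and W4, and 34531, 26914 and 14025 in W6, W7 and W8. The row of RPLP1, a ribosomal protein gene, held 18002, 23698 and 12766 reads in the Dorset libraries, 36222, 23039 and 10618 in Han BB, and 34404, 26891 and 13921 in Han ++. The KIF23 row therefore lay between 0.428% below and 2.82% above the RPLP1 row in every library. Its count was 21.4 to 121 times that of KIF11 and 4.47 to 20.4 times that of the highest other gene of the set in the same library. No other gene of the set had a row that stayed within 5% of its own count in all 9 libraries. In the annotation of a later sheep assembly, ARS-UI_Ramb_v3.0, PAQR5, KIF23, the noncoding gene LOC105611449 and RPLP1 follow each other in this order, and whether the counted gene models overlap was not tested. KIF23 is kept in the counts of tested genes below, and levels summed over the set leave it out, which gives 38 genes.

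**Figure D1:**
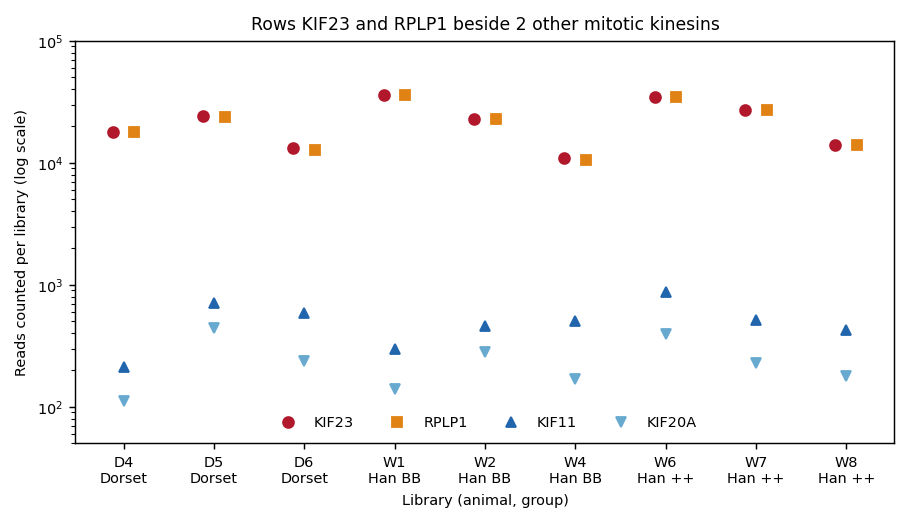
Reads counted per library (log axis, not normalized) on the rows KIF23 and RPLP1 and on 2 other mitotic kinesins, KIF11 and KIF20A, for the 9 ovaries. The KIF23 and RPLP1 points coincide in every library, from 10889 and 10618 reads in W4 to 36067 and 36222 in W1, and the kinesins KIF11 and KIF20A lie far below them.

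None of the 39 genes was called differentially expressed in any comparison, with a call set at an adjusted p under 0.05 (edgeR's quasi-likelihood test, Benjamini-Hochberg over all 16871 genes) and a change of over 1.5-fold in either direction. Among all tested genes, 0% were called in Han BB against Dorset, 0.00593% (1 gene) in Han ++ against Dorset, 0% in Han BB against Han ++ and 0% in both Han groups against Dorset. DESeq2 and limma voom with quality weights called none of the 39 in these comparisons either, although DESeq2 called 0.244%, 0.405%, 0.0081% and 0.532% of the genes it tested, in the same order, and limma voom 0.0119% in Han BB against Han ++. The test for any difference among the 3 groups also gave no call among the 39 and 0% among all genes. The lowest adjusted p of the set was 0.975 in Han BB against Dorset, 0.99 in Han ++ against Dorset, 0.999 in Han BB against Han ++ and 0.768 in both Han groups against Dorset.

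At an unadjusted p under 0.05 in edgeR, 1 of the 39 genes, CDC45, was lower in Han BB than in Dorset, which is 2.56% of the set against 4.99% of all genes tested (2.89% in that direction). The same gene was the 1 of 39 in both Han groups against Dorset, where the share of all genes was 6.12% (3.5% in that direction). No gene of the set reached this level in Han ++ against Dorset (5.27% of all genes), in Han BB against Han ++ (1.97%) or in the test for any difference (3.94%). These edgeR shares lie below the background in every comparison, but 1 gene already makes 2.56% of the set, so they do not show a depletion. In limma voom with quality weights the shares lay above the background in the pairwise Han BB comparisons, as given below.

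The fitted differences leaned downwards in Han BB without reaching the test. In Han BB against Dorset, 32 of the 39 genes had a negative log2 fold change, or 82.1% against 50.6% of all tested genes, and their median was -0.34 against -0.006. In Han BB against Han ++, 31 of 39 were negative, or 79.5% against 46.6%, with a median of -0.29 against 0.035. Han ++ and Dorset had no such lean, with 21 genes higher and 18 lower (46.2% against 55.9% of all genes) and a median of 0.049 against -0.061 over all genes. In both Han groups against Dorset 30 of 39 were negative, or 76.9% against 54.5%, with a median of -0.17. The comparisons of Han BB hold the same Han BB ewes, and the genes vary together between ewes, so the counts of genes are a description and carry no test.

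The lean of Han BB depended on single ewes, above all on W1 and D5. Without W1 the median in Han BB against Han ++ was -0.073 (21 of 39 lower) and that in Han BB against Dorset -0.13 (24 of 39 lower). The Dorset ewe D5 counted for as much in the latter comparison, since without D5 the median was -0.099 with 29 of 39 lower, and without W6 the median against Han ++ was -0.17. In both Han groups against Dorset the median was 0.049 without D5, -0.049 without W1 and -0.11 without W7. Without W4 and D6 the medians of Han BB were -0.43 against Dorset and -0.33 against Han ++, and 2 genes passed an unadjusted p of 0.05 in edgeR in each (CENPE and PRC1, and CCNA2 and CENPE), all lower in Han BB. That was 5.13% of the set in each, against 7.37% of all genes in the comparison with Dorset and 3.41% in that with Han ++. In Han ++ against Dorset the median ranged from -0.15 without D4 to 0.20 without W7.

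**Figure D2:**
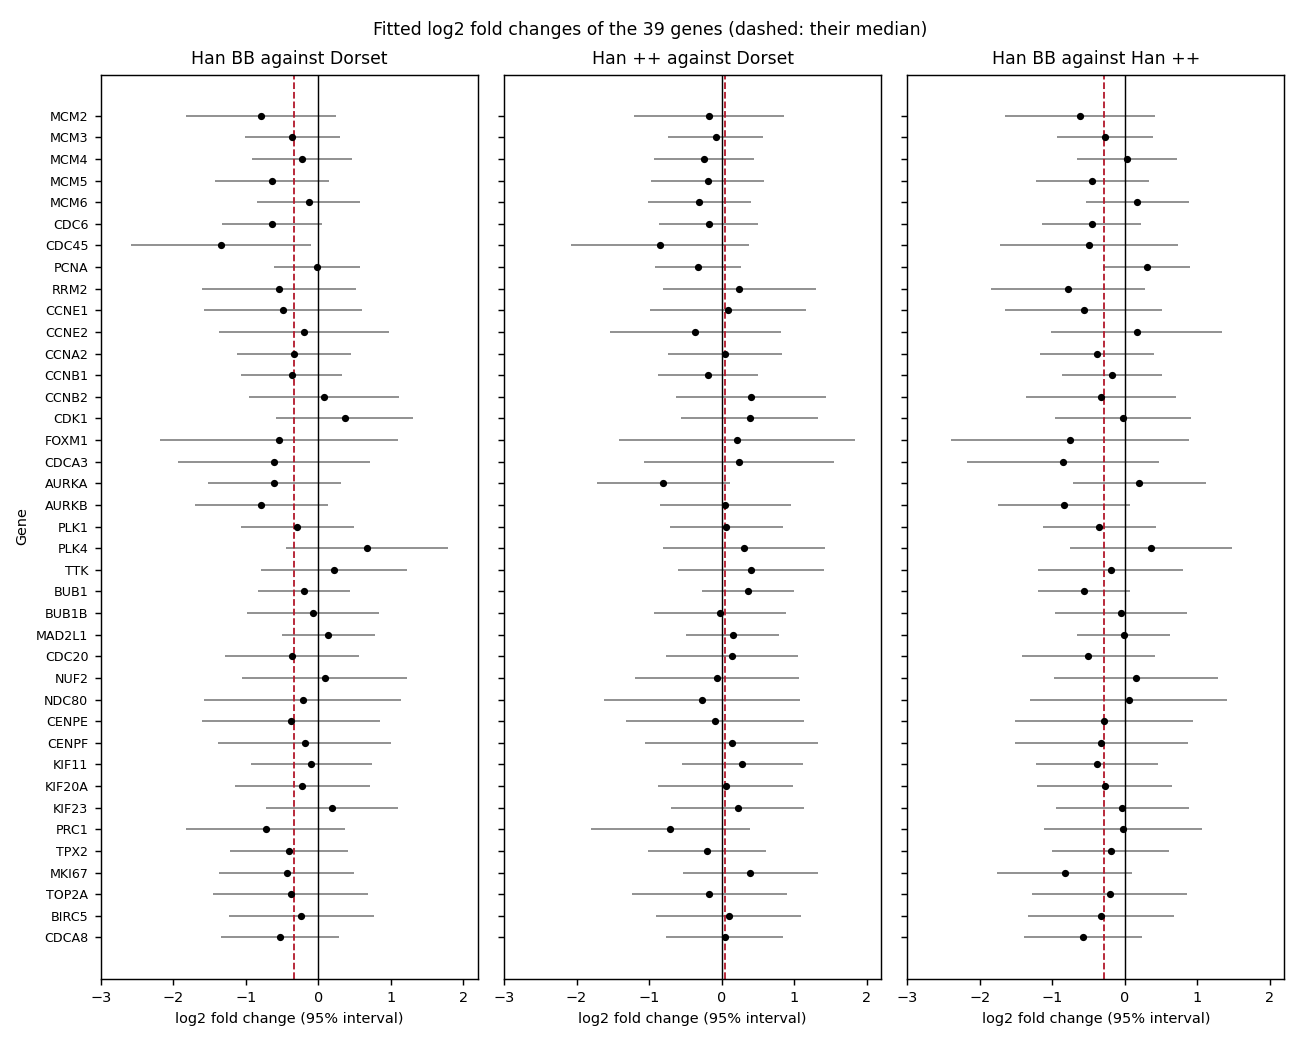
Fitted log2 fold change of each of the 39 genes (points) with its 95% interval (lines) in the 3 pairwise comparisons, from edgeR. The dashed line is the median of the 39, at -0.34, 0.049 and -0.29 from left to right, and every interval but that of CDC45 in Han BB against Dorset includes 0. The KIF23 row is drawn although its reads follow RPLP1.

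The width of the intervals sets what these ovaries could show. In Han BB against Dorset the 95% interval of 32 of the 39 genes reached a 2-fold difference in at least 1 direction, and 7 lay wholly within it. The corresponding numbers were 25 and 14 in Han ++ against Dorset, and 30 and 9 in Han BB against Han ++. In Han BB against Dorset the narrowest interval spanned 1.19 on the log2 scale (PCNA) and the widest 3.28 (FOXM1). For most of the set a 2-fold difference in at least 1 direction thus lay within the interval, and the missing calls do not show that the groups were alike.

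The genes of replication origins and forks were the role in which every gene had a negative fold change in both comparisons with Dorset, 8 of 8 each, with a median log2 fold change of -0.50 for Han BB and -0.22 for Han ++. Of all tested genes 50.6% and 55.9% were lower in these comparisons, which use the same Dorset ewes. The 17 other tested genes of origin licensing and firing did not share the direction, with 13 higher and 4 lower in Han BB (median 0.098) and 9 higher and 8 lower in Han ++ (median 0.007). Of the 18 tested genes of polymerases and the clamp loader, 12 were lower in Han BB (median -0.043) and 15 in Han ++ (median -0.24). CDC45, a subunit of the active replicative helicase, was read at 14.2, 7.89 and 12.1 CPM in D4, D5 and D6, at 1.76, 7.71 and 4.01 CPM in W1, W2 and W4, and at 5.01, 3.53 and 10.5 CPM in W6, W7 and W8. Each Han BB ewe lay below each Dorset ewe, with W2 just under D5, and W8 of the Han ++ group lay within the Dorset range. Its fitted log2 change was -1.34 (SE 0.56, 95% interval -2.59 to -0.10, adjusted p = 0.975) in Han BB against Dorset, with an unadjusted p of 0.0361 from edgeR, and -0.85 (SE 0.56, adjusted p = 0.9999) in Han ++ against Dorset. The unadjusted p of Han BB against Dorset was no longer under 0.05 when D4, D6, W1 or W4 was left out.

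CDC6, which loads the helicase in G1, was the other gene of replication origins and forks whose Han BB values did not overlap those of Dorset. It was read at 5.79, 5.32 and 4.01 CPM in W1, W2 and W4, at 7.30, 8.88 and 7.43 CPM in the Dorset ewes and at 6.39, 6.38 and 8.11 CPM in the Han ++ ewes. The Han BB values lay under all others, with W1 close to W7. The log2 fold change was -0.64 (SE 0.31, 95% interval -1.33 to 0.047, adjusted p = 0.977) against Dorset and -0.46 (SE 0.31, adjusted p = 0.9995) against Han ++. In all, the Han BB and Dorset values of 3 of 39 genes (CDC6, CDC45 and AURKB) did not overlap, or 7.69% against 8.79% of all genes (4.52% in that direction), and those of Han BB and Han ++ did not for 2 of 39 (CDC6 and BUB1), or 5.13% against 9.38% (4.59% in that direction). No gene of the set separated Han ++ from Dorset, where 11.1% of all genes did.

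MCM2, a subunit of the MCM helicase, was read at 18.2, 34.5 and 12.1 CPM in D4, D5 and D6, at 16.0, 16.0 and 5.49 CPM in W1, W2 and W4, and at 15.5, 18.2 and 24.0 CPM in W6, W7 and W8. D5 was the highest and W4 the lowest ewe, and W1 and W2 lay between D6 and D4. In the fit, the log2 fold change was -0.79 (SE 0.47, 95% interval -1.83 to 0.25, adjusted p = 0.988) in Han BB against Dorset, -0.17 (SE 0.47, adjusted p = 0.9999) in Han ++ against Dorset and -0.62 (SE 0.47, adjusted p = 0.9995) in Han BB against Han ++. Without D5, the difference between Han ++ and Dorset turned to 0.345. The other MCM subunits ranged over the 9 ewes from 32.4 to 66.3 CPM for MCM3, 36.5 to 68.5 CPM for MCM4, 11.4 to 36.2 CPM for MCM5 and 83.7 to 163 CPM for MCM6. W4 was lowest for MCM2, MCM3 and MCM5 and highest for MCM6, although all of these encode parts of the same ring.

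PCNA, the sliding clamp of DNA polymerases, had the narrowest interval of the set in each pairwise comparison. Its level was 60.0, 49.2 and 82.2 CPM in the Dorset ewes, 56.2, 66.0 and 65.9 CPM in Han BB and 55.4, 41.0 and 56.6 CPM in Han ++. D6 was the highest and W7 the lowest, and the 3 groups overlapped. The fitted log2 fold change was -0.025 (SE 0.27, 95% interval -0.62 to 0.57, adjusted p = 0.9975) in Han BB against Dorset, -0.32 (SE 0.27, adjusted p = 0.9999) in Han ++ against Dorset and 0.30 (SE 0.27, 95% interval -0.30 to 0.89, adjusted p = 0.9995) in Han BB against Han ++, where it was among the 3 highest of the set.

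Of the enzymes of nucleotide synthesis, RRM2, the regulated subunit of ribonucleotide reductase, ranged from 6.83 CPM in W1 to 35.8 CPM in W8, with D4 at 10.8 CPM. The edgeR fit gave a log2 fold change of -0.54 in Han BB against Dorset and -0.79 in Han BB against Han ++, with adjusted p of 0.9961 and 0.9995. The TYMS row LOC100037674 was read at 37.1, 20.3 and 24.5 CPM in the Dorset ewes, 20.0, 35.2 and 15.1 CPM in Han BB and 33.5, 18.7 and 29.2 CPM in Han ++. W4 was lowest and D4 highest for it, the groups overlapped, and the fitted log2 change was -0.22 (SE 0.38, adjusted p = 0.9975) in Han BB against Dorset.

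The cyclins of G1/S and S phase did not separate the groups. CCNE1 and CCNE2, the E cyclins that activate CDK2, ranged from 1.74 to 6.72 CPM (lowest in W4, highest in W8) and from 1.47 to 7.92 CPM (lowest in W1, highest in W2). CCNA2, the cyclin of S phase and G2, ranged from 8.54 to 19.2 CPM, lowest in W1 and highest in W8. All of these 3 were lower in Han BB than in Dorset in the fit, with log2 fold changes between -0.49 and -0.20, and their adjusted p were 0.9975.

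Entry into mitosis depends on CDK1 with its B cyclins. CDK1 was read at 11.0, 10.9 and 9.10 CPM in the Dorset ewes, at 12.1, 10.1 and 17.7 CPM in Han BB and at 23.4, 7.24 and 9.86 CPM in Han ++. W6 and W4 were the high ewes, and the other 7 lay between 7.24 and 12.1 CPM. The log2 fold change was 0.36 (SE 0.43, adjusted p = 0.9975) in Han BB against Dorset, among the 3 highest of the set there, 0.39 (SE 0.43, adjusted p = 0.9999) in Han ++ against Dorset and -0.028 (SE 0.43, adjusted p = 0.9995) in Han BB against Han ++. Without W6 the difference between Han ++ and Dorset turned to -0.295.

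CCNB1, a B cyclin, was read at 23.1, 27.3 and 29.7 CPM in D4, D5 and D6, at 13.4, 24.4 and 24.1 CPM in W1, W2 and W4, and at 27.3, 17.0 and 26.0 CPM in W6, W7 and W8. W1 and W7 were the low ewes, each in another Han group, and the remaining 7 lay between 23.1 and 29.7 CPM. In the fit, the log2 fold change was -0.37 (SE 0.31, 95% interval -1.06 to 0.32, adjusted p = 0.9958) in Han BB against Dorset and -0.18 (SE 0.31, adjusted p = 0.9995) in Han BB against Han ++. CCNB2, the other B cyclin, was read at 7.20, 6.67 and 6.70 CPM in Dorset, at 8.83, 9.46 and 3.35 CPM in Han BB and at 10.7, 4.30 and 12.2 CPM in Han ++. The Dorset ewes were close to each other and the Han ewes lay both below and above them, and the log2 fold change was 0.40 (SE 0.47, adjusted p = 0.9999) in Han ++ against Dorset.

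FOXM1, the transcription factor that raises mitotic genes, had the widest intervals of the set. It ranged from 0.736 CPM in W4 to 5.53 CPM in W8. W1 and D6 were also low, so that the low ewes came from Han BB and Dorset. CDCA3, a part of the ligase that removes WEE1 at entry, was read at 15.0, 11.2 and 3.80 CPM in Dorset, at 6.74, 9.88 and 2.88 CPM in Han BB and at 15.6, 5.11 and 14.7 CPM in Han ++. W4 and D6 were its lowest ewes and W7 the next, and the log2 fold change of -0.86 (SE 0.60, 95% interval -2.18 to 0.47, adjusted p = 0.9995) in Han BB against Han ++ was the lowest of the set there.

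**Figure D3:**
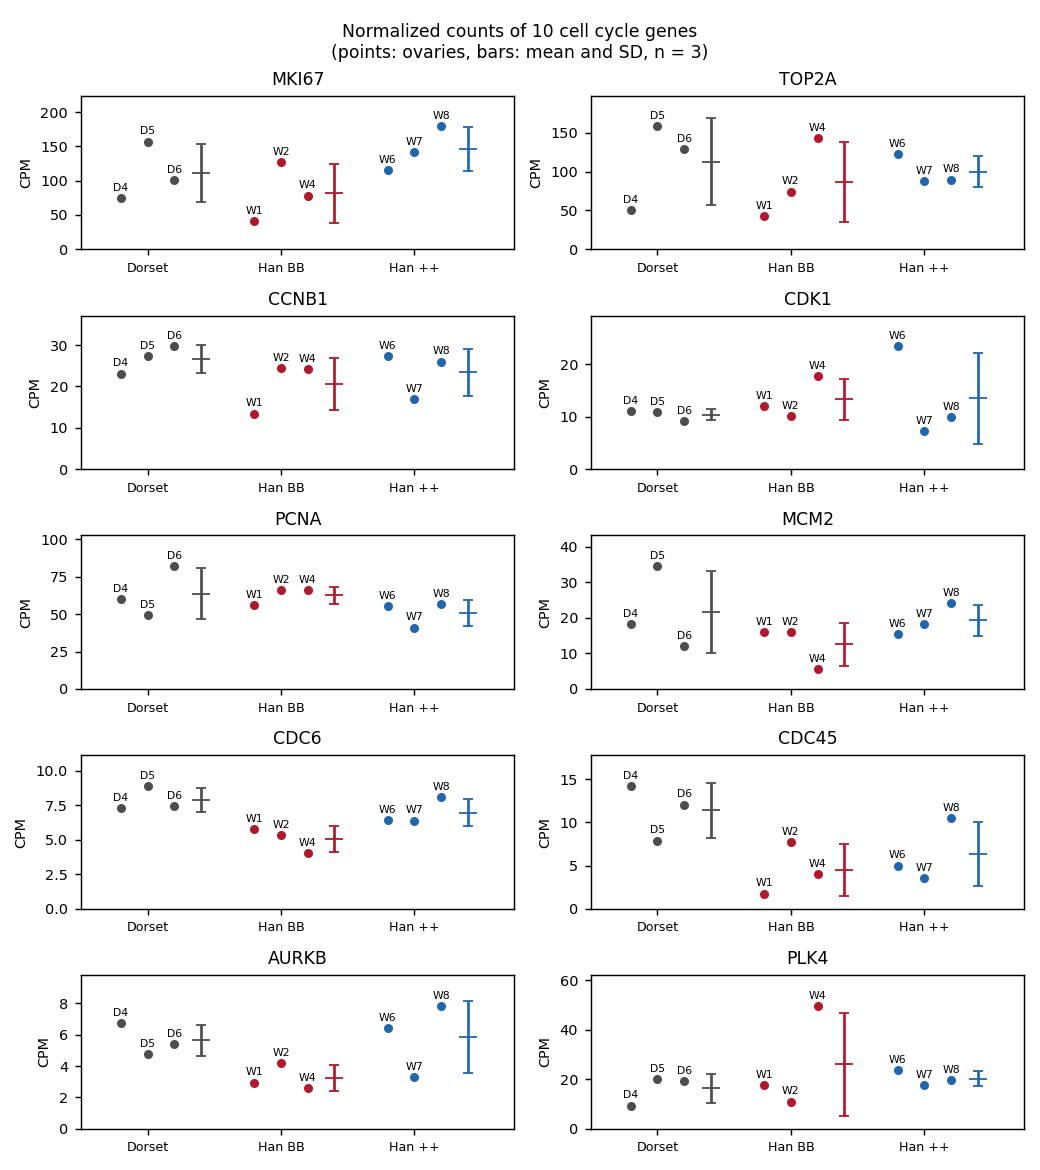
CPM of 10 genes in each ewe (points, named), with the mean and SD of the 3 ewes of each group beside them, on linear axes that start at 0. CDC45, CDC6 and AURKB are the genes in which each Han BB ewe lies below each Dorset ewe, and the high PLK4 mean of Han BB comes from W4.

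The mitotic kinases had their highest and lowest values in different ewes. AURKB, the kinase of the chromosomal passenger complex, was read at 6.71, 4.78 and 5.42 CPM in Dorset, at 2.94, 4.20 and 2.61 CPM in Han BB and at 6.39, 3.30 and 7.83 CPM in Han ++. All Han BB ewes lay below all Dorset ewes, with W2 at 4.20 CPM close to D5 at 4.78 CPM, and W7 lay within the Han BB range. The fitted log2 fold change was -0.79 (SE 0.42, 95% interval -1.71 to 0.12, adjusted p = 0.977) against Dorset and -0.84 (SE 0.41, 95% interval -1.75 to 0.075, adjusted p = 0.9995) against Han ++, the unadjusted p from edgeR being 0.0838 and 0.0684. AURKA, the centrosomal Aurora kinase, was read at 15.4, 16.4 and 37.1 CPM in Dorset, at 16.0, 12.1 and 17.1 CPM in Han BB and at 19.3, 8.46 and 11.6 CPM in Han ++. D6 stood above every other ewe and W7 was lowest. Its fitted log2 change was -0.81 (SE 0.42, adjusted p = 0.990) in Han ++ against Dorset, -0.28 without D6, and 0.20 (SE 0.42, adjusted p = 0.9995) in Han BB against Han ++, where it was among the 3 highest and turned to -0.027 without W7.

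PLK4, which starts the duplication of centrioles, had the highest fold change of the set in Han BB, and a single ewe set it. It was read at 17.5, 10.9 and 49.6 CPM in W1, W2 and W4, at 9.34, 20.2 and 19.3 CPM in the Dorset ewes and at 23.6, 17.5 and 19.7 CPM in the Han ++ ewes. W4 lay above all 8 other ewes, which reached at most 23.6 CPM. The log2 fold change was 0.67 (SE 0.51, 95% interval -0.45 to 1.79, adjusted p = 0.9958) in Han BB against Dorset and 0.36 (SE 0.51, adjusted p = 0.9995) in Han BB against Han ++, and without W4 these were -0.23 and -0.52. PLK1, the kinase of entry and spindle assembly, ranged from 7.96 to 17.5 CPM, lowest in W4 and highest in D5. TTK, a kinase of the spindle checkpoint, was read at 6.91, 13.0 and 14.2 CPM in Dorset, at 7.12, 18.5 and 14.1 CPM in Han BB and at 16.2, 8.14 and 21.2 CPM in Han ++. D4, W1 and W7, 1 ewe of each group, lay between 6.91 and 8.14 CPM and the rest between 13.0 and 21.2 CPM. The edgeR fit gave a log2 fold change of 0.41 (SE 0.46, adjusted p = 0.9999) in Han ++ against Dorset, the highest there, and 0.21 (SE 0.46, adjusted p = 0.9975) in Han BB against Dorset.

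Of the genes of the spindle checkpoint and its target, BUB1 separated the Han groups. BUB1, a checkpoint kinase at the kinetochore, was read at 12.5, 17.8 and 15.6 CPM in W1, W2 and W4, at 27.8, 18.0 and 21.9 CPM in W6, W7 and W8, and at 14.4, 21.1 and 17.0 CPM in the Dorset ewes. W2 lay just below W7, so that the gap between the Han groups was narrow. In the fit, the log2 fold change was -0.56 (SE 0.29, 95% interval -1.19 to 0.071, adjusted p = 0.9995) in Han BB against Han ++. BUB1B, the checkpoint protein BUBR1, ranged from 15.2 to 45.1 CPM (W1 to W4, both Han BB). MAD2L1, which inhibits CDC20, ranged from 11.5 to 20.3 CPM, and CDC20, the activator of the anaphase-promoting complex, from 4.42 to 12.6 CPM. MAD2L1 differed 1.76-fold between its lowest ewe, D6, and its highest, W6.

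The outer kinetochore genes spanned wide ranges within a group. NDC80, which binds microtubules, was read at 5.55, 15.3 and 19.2 CPM in Dorset, at 3.89, 8.55 and 22.2 CPM in Han BB and at 16.3, 8.64 and 8.29 CPM in Han ++. CENPE, a kinetochore kinesin, was read at 23.4, 45.4 and 58.1 CPM in Dorset, at 11.2, 21.7 and 64.8 CPM in Han BB and at 43.4, 29.2 and 46.8 CPM in Han ++. W1 was the lowest and W4 the highest ewe for each, so that the Han BB group held both ends of the range. NUF2, the partner of NDC80, and CENPF, a large protein of the outer kinetochore, ranged from 7.59 to 28.4 CPM and 34.4 to 142 CPM, with W4 again highest and D4 lowest. The log2 fold changes of these 4 lay between -0.38 and 0.084 in Han BB against Dorset, within SEs of 0.51 to 0.62.

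Among the spindle motors and midzone proteins, PRC1, which bundles midzone microtubules, was read at 16.7, 36.4 and 45.4 CPM in Dorset, at 12.9, 13.0 and 33.7 CPM in Han BB and at 25.9, 11.2 and 23.4 CPM in Han ++. D6, D5 and W4 were high, and W7, W1 and W2 low. Its fitted log2 change was -0.73 (SE 0.50, adjusted p = 0.9958) in Han BB against Dorset and -0.71 (SE 0.50, adjusted p = 0.9999) in Han ++ against Dorset, among the 3 lowest there. KIF11, the kinesin that separates spindle poles, ranged from 14.1 to 41.6 CPM, KIF20A, a midzone kinesin, from 6.60 to 19.7 CPM, and TPX2, which activates AURKA at the spindle, from 25.9 to 68.8 CPM. W1 was the lowest ewe for all of these 3.

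MKI67, whose product coats mitotic chromosomes and is the usual marker of dividing cells, was read at 74.2, 157 and 101 CPM in D4, D5 and D6, at 40.4, 126 and 78.1 CPM in W1, W2 and W4, and at 115, 142 and 179 CPM in W6, W7 and W8. W1 was lowest and W8 highest, W2 lay above W6, and all 3 groups overlapped. With SDs over 3 ewes, Dorset averaged 110.5 ± 42.2 CPM, Han BB 81.7 ± 43.1 CPM and Han ++ 146 ± 32.0 CPM. The fitted log2 fold change was -0.83 (SE 0.42, 95% interval -1.76 to 0.099, adjusted p = 0.9995) in Han BB against Han ++, among the 3 lowest of the set, 0.40 (SE 0.42, adjusted p = 0.9999) in Han ++ against Dorset, among the 3 highest, and -0.44 (SE 0.42, adjusted p = 0.9975) in Han BB against Dorset. The Han BB difference to Han ++ was -0.51 without W1.

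TOP2A, the topoisomerase that untangles chromosomes, was read at 50.3, 158 and 129 CPM in Dorset, at 42.2, 74.2 and 143 CPM in Han BB and at 123, 87.8 and 89.6 CPM in Han ++. D4 and W1 were the low ewes and D5 and W4 the high ones, so that Dorset and Han BB each covered nearly the whole range. The edgeR fit gave a log2 fold change of -0.38 (SE 0.48, 95% interval -1.45 to 0.68, adjusted p = 0.9975) in Han BB against Dorset, -0.17 (SE 0.48, adjusted p = 0.9999) in Han ++ against Dorset and -0.21 (SE 0.48, adjusted p = 0.9995) in Han BB against Han ++. BIRC5 and CDCA8, survivin and borealin of the passenger complex, ranged from 6.38 to 19.7 CPM (W7 to W6, both Han ++) and 5.46 to 13.5 CPM (W1 to W8).

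Across the set, ewes of a group differed as much as the groups did. The summed level of the 38 genes was 801, 1366 and 1262 CPM in D4, D5 and D6, 640.4, 992.8 and 1209 CPM in W1, W2 and W4, and 1202, 914.2 and 1221 CPM in W6, W7 and W8. Group means with SDs (n = 3 each) were 1143 ± 301 CPM for Dorset, 947 ± 287 CPM for Han BB and 1112 ± 172 CPM for Han ++. W1 was the lowest ewe, and W4 of the same group was close to W6 and W8. On the log2 scale, with each gene centred on its mean over the 9 ewes, the mean over the 38 genes was -0.66 in W1, -0.30 in W7, -0.14 in D4 and -0.12 in W4, and it was 0.37 in D5, 0.32 in W6 and in W8, 0.16 in D6 and 0.05 in W2. W1 was the lowest ewe for 15 of the 38 genes and the highest for none. W4 was the lowest for 11 and the highest for 7.

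**Figure D4:**
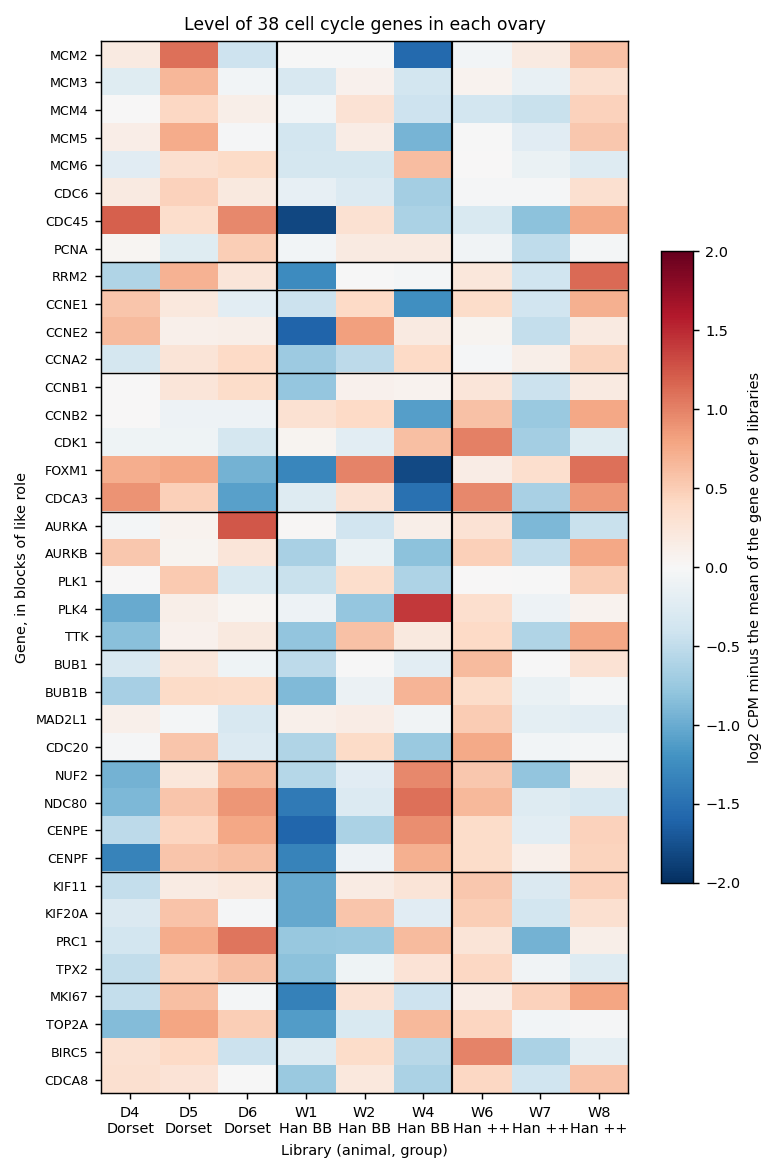
Level of each of the 38 genes (rows, in blocks of like role) in each ewe (columns), as log2 CPM minus the mean of the gene over the 9 ewes. W1 is blue for most genes, while W4 has red kinetochore genes and PLK4 beside blue MCM2, MCM5, FOXM1 and CDCA3.

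The genes varied together from ewe to ewe, in part. The Spearman correlation of each gene with the mean of the other 37 over 9 libraries had a median of 0.52 and ranged from -0.1 to 0.9, while the median over the tested genes outside the set against the mean of the set was 0.0. A rho of at least 0.7 was found for 13.2% of the set and 0.778% of the tested genes outside it. RRM2 (0.90), CCNB1 (0.88) and KIF20A (0.88) followed the mean most closely, and PCNA (-0.03), CDK1 (-0.07) and MAD2L1 (-0.10) did not follow it. Over the 7 libraries without W4 and D6 the median was 0.62 and the share at 0.7 or above 39.5%, against 2.37% of the tested genes outside the set. These values share the libraries and their scaling and are given as a description.

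W4 and D6 departed from their group mates in the same direction in most of the set. Of the 38 genes, 18 were higher in both than the mean of the other 2 ewes of the group on the log2 scale, 16 were lower in both, and 4 (CCNE2, CDK1, BUB1 and MKI67) went opposite ways. Over all tested genes the 2 libraries went the same way in 80.1%, so the pattern is not particular to this set. CENPE was higher by 2.05 in W4 and 0.83 in D6, and NDC80 by 1.94 and 1.05. CDCA3 differed by -1.49 in W4 and -1.77 in D6, and FOXM1 by -1.61 and -1.68. Thus kinetochore genes lay on the high side, together with PRC1, TOP2A and PLK4, and MCM2, MCM5, CCNE1, PLK1, CDC20 and BIRC5 on the low side. W4 and D6 were the 2 highest of the 9 libraries for MCM6, NUF2, NDC80, CENPE and CENPF, or 13.2% of the set against 18.6% of all genes, and the 2 lowest for MCM2 and CDCA3, or 5.26% against 17.1%.

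**Figure D5:**
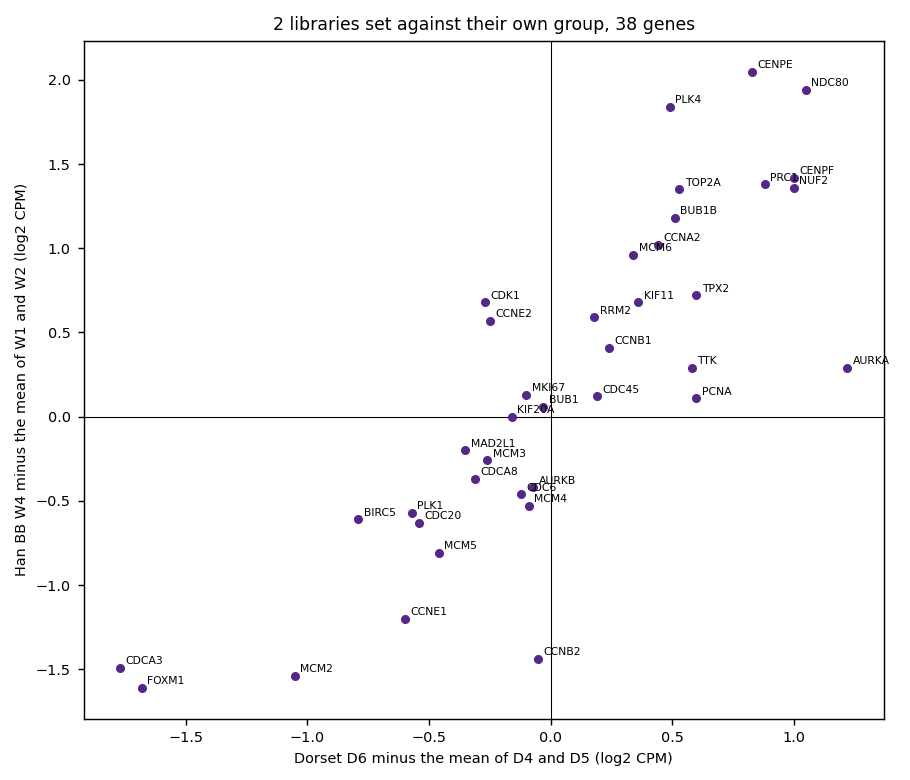
For each of the 38 genes, the log2 CPM of Dorset ewe D6 minus the mean of D4 and D5 (horizontal axis) against that of Han BB ewe W4 minus the mean of W1 and W2 (vertical axis). Most genes lie in the upper right (18) and lower left (16) corners, with CENPE and NDC80 at one end and CDCA3 and FOXM1 at the other.

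Weighting the libraries changed how many genes passed an unadjusted p of 0.05 but gave no call. In limma voom with quality weights, W4 had a weight of 0.293, D6 0.464 and D4 0.465, and W1 had 2.19. With these weights 9 of the 39 genes were lower in Han BB than in Dorset at an unadjusted p under 0.05 (CCNA2, CDC45, CENPE, MCM5, NDC80, PRC1, RRM2, TOP2A and TPX2), or 23.1% against 11.5% of all genes. Against Han ++, 10 of 39 were lower (BUB1, BUB1B, CCNA2, CENPE, CENPF, KIF11, MKI67, NDC80, RRM2 and TOP2A), or 25.6% against 7.26%. The lowest adjusted p were 0.322 and 0.646. The median log2 fold change of the set was -0.62 in Han BB against Dorset, -0.14 in Han ++ against Dorset, where the fit without weights gave 0.049, -0.44 in Han BB against Han ++ and -0.38 in both Han groups against Dorset. The weights follow from the data and raise the part of W1, the ewe with the lowest levels, in the Han BB mean.

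The remaining genes of the cell cycle were read from 10 lists by role with 170 symbols, of which 158 had a row and 154 were tested. None was called in any comparison by edgeR, DESeq2 or limma voom. At an unadjusted p under 0.05 in edgeR, 7 of 154 passed in Han BB against Dorset (1 higher, 6 lower), 2 in Han ++ against Dorset (both higher), 5 in Han BB against Han ++ (all lower) and 5 in both Han groups against Dorset (2 higher, 3 lower). These were 4.55%, 1.3%, 3.25% and 3.25% of the 154, against 4.99%, 5.27%, 1.97% and 6.12% of all genes. Their median log2 fold change was -0.099, -0.10, -0.033 and -0.11 in the same order, nearer to that of all genes than the set of 39 was in the Han BB comparisons. The lists differed in direction. In Han BB against Han ++, where 46.6% of all tested genes were lower, 22 of 24 spindle and cytokinesis genes and 13 of 16 genes of mitotic entry and exit were lower (medians -0.18 and -0.47), but 6 of 17 genes of origin licensing and firing and 11 of 26 of kinetochore and centromere (medians 0.13 and 0.10). Of condensin and cohesin 6 of 13 were lower there, of polymerases and the clamp loader 8 of 18, of nucleotide supply 4 of 7, of G1 cyclins and their kinases 5 of 9, of pocket proteins, E2F and MuvB 9 of 17, and of CDK inhibitors 4 of 7. In both Han groups against Dorset, where 54.5% of all tested genes were lower, the counts in the same order of lists were 17 of 24, 13 of 16, 8 of 17, 12 of 26, 13 of 13, 15 of 18, 5 of 7, 8 of 9, 10 of 17 and 4 of 7. The condensin and cohesin genes had a median of -0.21 in that comparison, and none had an unadjusted p under 0.05 in edgeR. Taken by group, 9 of 13 of them were lower in Han BB than in Dorset (median -0.12) and 12 of 13 in Han ++ than in Dorset (median -0.24).

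CCND1, the D cyclin through which mitogens start the cycle, was read at 3.41, 10.8 and 3.63 CPM in D4, D5 and D6, at 2.09, 2.10 and 1.60 CPM in W1, W2 and W4, and at 1.76, 3.08 and 3.22 CPM in W6, W7 and W8. All Han ewes lay below all Dorset ewes, with W8 at 3.22 CPM close to D4 at 3.41 CPM, and D5 stood above the other 2 Dorset ewes. Its fitted log2 change was -1.63 (SE 0.54, 95% interval -2.81 to -0.44, adjusted p = 0.970) in Han BB against Dorset and -1.16 (SE 0.53, adjusted p = 0.949) in Han ++ against Dorset, and -0.86 and -0.40 without D5. KIFC1, a minus-end kinesin of the spindle, was read at 18.3, 15.7 and 13.4 CPM in Dorset, at 6.83, 10.9 and 6.49 CPM in Han BB and at 13.0, 11.2 and 14.9 CPM in Han ++. Han BB lay below both other groups, with W2 close to W7, and the log2 fold change was -0.97 (SE 0.31, 95% interval -1.65 to -0.29, adjusted p = 0.968) against Dorset. The genes named from these lists were picked by their low p, which favours groups that do not overlap. Of all genes, 8.79% did not overlap in Han BB against Dorset, 11.1% in Han ++ against Dorset and 9.38% in Han BB against Han ++.

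CDC25B, the phosphatase that activates CDK1 at entry, had an unadjusted p under 0.05 in edgeR in both Han groups against Dorset. It was read at 31.2, 23.4 and 24.6 CPM in Dorset, at 45.0, 45.7 and 35.6 CPM in Han BB and at 42.8, 40.2 and 42.8 CPM in Han ++. Every Han ewe lay above every Dorset ewe, and the log2 fold change was 0.67 (SE 0.24, adjusted p = 0.975) in Han BB and 0.67 (SE 0.24, adjusted p = 0.849) in Han ++ against Dorset. In these comparisons the groups did not overlap for 8.79% and 11.1% of all genes. The 3 lowest p of Han BB against Han ++ belonged to CDKN3, KIF18B and CDKN2B. CDKN3, a phosphatase that acts on CDKs, was read at 1.33, 1.26 and 1.41 CPM in Han BB, at 5.20, 2.81 and 4.14 CPM in Han ++ and at 1.36, 2.25 and 1.90 CPM in Dorset. Each Han ++ ewe lay above every other ewe, and the log2 fold change was -1.60 (SE 0.48, 95% interval -2.67 to -0.53, adjusted p = 0.9995) in Han BB against Han ++ and 1.13 (SE 0.48, adjusted p = 0.910) in Han ++ against Dorset. Here the groups did not overlap for 9.38% and 11.1% of all genes. KIF18B, a kinesin that shortens microtubules, was read at 0.427, 1.33 and 1.14 CPM in Han BB and at 1.43, 2.49 and 5.25 CPM in Han ++, with a log2 fold change of -1.66 (SE 0.65, adjusted p = 0.9995). These levels are low, so its difference rests on few reads. CDKN2B, an inhibitor of CDK4 and CDK6, had 1 to 24 reads per library, too few to read its level closely.

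Markers of ovarian cells were set beside these levels, and their part in them was not tested. Of 11 granulosa markers with a row (FOXL2 and CYP19A1 had none), 10 were lower in Han BB than in Dorset, or 90.9% against 50.6% of all genes. The median log2 fold change of the 11 was -1.11. Only the activin antagonist FST passed an unadjusted p of 0.05 in edgeR in that comparison (log2 fold change -1.12, adjusted p = 0.975), or 9.09% of the list against 4.99% of all genes. In Han ++ against Dorset 6 of 11 were lower, or 54.5% against 55.9% of all genes, with a median of -0.082. Among these GJA1 passed an unadjusted p of 0.05 in edgeR (log2 fold change -0.62, adjusted p = 0.943), or 9.09% of the list against 5.27% of all genes. Of the 11, 9 were lower in Han BB than in Han ++, with a median of -0.63. HSD17B1, an enzyme of oestradiol synthesis, passed an unadjusted p of 0.05 in edgeR there, or 9.09% of the list against 1.97% of all genes. It had 71, 4 and 1 reads in W1, W2 and W4, so its difference rests on very few reads. None of the 11 was called in any comparison, and 46.6% of all tested genes were lower in the last. The summed granulosa markers ranged from 626.2 to 914.9 CPM in Dorset, from 482.5 to 641.7 CPM in Han BB and from 488.8 to 702.4 CPM in Han ++. GJA1 alone was read at 218.2 to 471.6 CPM, so it is a large part of this sum. FSHR and INHA were lowest in W4, at 5.42 and 13.6 CPM. The summed theca markers ranged from 2458 to 6259 CPM, the luteal from 327.2 to 1040 CPM, the endothelial and mural from 3546 to 8125 CPM and the erythroid from 0 to 4.77 CPM over the 9 ewes. COL1A1, at 1104 to 5382 CPM, set most of the theca sum, in which CYP17A1 was read at 2.81 to 119.5 CPM. MYH11, at 1312 to 5940 CPM, and ACTA2, at 1336 to 2948 CPM, set most of the endothelial and mural sum. These 2 sums are thus not levels of a cell type. Immune markers summed highest in W1, at 360.4 CPM, and lowest in D5, at 141 CPM. CD68, which ranged from 26.9 CPM in D5 to 217 CPM in W1, is a large part of this sum. Other immune markers did not follow it, since CSF1R was highest in D5, at 42.9 CPM, and PTPRC in W4, at 163 CPM. Among oocyte markers KIT, which somatic cells also express, was read at 39.3 to 74.2 CPM, and each of the others was at or under the 9.73 CPM of ZP3, so no sum is given for them. Markers of ciliated epithelium were higher in both Han groups than in Dorset in the fit, but the sums of Han BB and Dorset overlapped. They summed to 124.9 to 286.6 CPM in Dorset and to 323.2 to 481.8 CPM in Han ++, whose summed levels all lay above Dorset. TPPP3, at 42.9 to 195 CPM, and DNAH5, at 29.6 to 318 CPM, are a large part of these sums. Gene by gene, only FOXJ1 and TPPP3 had every Han ++ ewe above every Dorset ewe, where 11.1% of all genes did not overlap. DNAI1 in W8, at 1.93 CPM, lay below every Dorset ewe. In Han BB the sums were 292.3 CPM in W1, 203.8 CPM in W2, within the Dorset range, and 627 CPM in W4. All 8 were higher in Han BB than in Dorset (median log2 fold change 0.70, lowest adjusted p = 0.975 from edgeR) and in Han ++ than in Dorset (median 0.82, lowest adjusted p = 0.448). FOXJ1, the regulator of motile cilia, and TPPP3 passed an unadjusted p of 0.05 in edgeR in Han ++ against Dorset. That was 25.0% of the list against 5.27% of all genes, and none of the 8 was called. Of the 8, 4 were lower in Han BB than in Han ++ (median -0.022). FOXJ1 was among these 4, with a log2 fold change of -1.21 (unadjusted p = 0.00767 in edgeR, adjusted p = 0.9995). It was the 1 gene of the list under 0.05 there, or 12.5% against 1.97% of all genes.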

How the data were processed

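Ovary RNA of 9 ewes in 3 groups of 3 was sequenced. Reads were aligned by the authors to Oar_v3.1 with TopHat, and the counts of uniquely mapped reads per gene were deposited without normalization. Library chemistry is given in 2 ways, as a stranded kit with depletion of ribosomal RNA in the methods and as another Illumina kit in the labels. Which program counted the reads, and whether it used the strand, is not given in the sources, so overlapping genes are uncertain. Tests were run with edgeR 4.0.16 (quasi-likelihood F-test, 1 fit of all 9 libraries, TMM, edgeR's filter by group, 16871 of 27174 rows kept, Benjamini-Hochberg over these), limma 3.58.1 and DESeq2 1.42.0 under R 4.3.3, and each was tested on simulated data. Python 3.11.15 and matplotlib 3.10.9 drew the figures. Calls needed an adjusted p under 0.05 and a change of over 1.5-fold in either direction, as in the methods, which used DESeq. SEs were worked back from each fold change and the F statistic of edgeR's test. The 95% intervals were made from these SEs with t quantiles, so whether an interval includes 0 follows from that test. A prior count of 0.5 served the log2 levels.

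The genes, the lists and the alternatives were chosen with earlier results of these data known. The genes with full statistics were the 3 highest and 3 lowest fold changes in each pairwise comparison, MKI67, TOP2A, CDK1, CCNB1, MCM2 and PCNA, and of the other cell cycle lists the 3 lowest p, since none was called. Genes whose groups do not overlap, and the KIF23 row, were singled out after their values were seen. The 170 symbols of the other lists include 3 genes under both an older and a newer symbol. Gene names and order were read from an annotation of ARS-UI_Ramb_v3.0, which is not the assembly of the counts, so no position is given. As alternatives, edgeR was run with the size factors of DESeq2, with no filter, with a filter of 1 CPM in 3 libraries, on the compared groups only, without a fold threshold, without each library in turn, without W4 and D6, and with a term for them. DESeq2 itself and limma voom, the latter with quality weights, were run beside it. A planned count of promoter motifs was not run.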

Additional observations from a re-analysis of the deposited data

How the results depend on the processing

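No gene of the set and none of the other 154 cell cycle genes was called under any alternative, and counting without the KIF23 row (chosen after seeing the data) changed no call. Genes of the set at an unadjusted p under 0.05 numbered 1 in Han BB against Dorset. They were 9 in limma voom with quality weights (23.1% of the set against 11.5% of all genes), 2 without W4 and D6 (5.13% against 7.37%), 5 with a term for these libraries (12.8% against 10.7%) and 0 to 4 when single libraries were left out (0 without D4 or W1, 4 without W2, or 10.3% against 4.91%, 3 without W4, or 7.69% against 6.02%). In Han BB against Han ++ there were none, and 10 (25.6% against 7.26%), 2 (5.13% against 3.41%), 2 (5.13% against 3.68%) and 0 to 4 under the same changes (4 without W2, or 10.3% against 3.0%, 2 without W4, or 5.13% against 1.84%, 1 without W7, or 2.56% against 1.77%). In both Han groups against Dorset there was 1, and 2 (5.13% against 11.3%), 0 (all genes 9.56%), 3 (7.69% against 14.4%) and 0 to 3. The 3 came without W4 (7.69% against 8.17%), and 2 without D4 or D5 (5.13% against 9.19% and 3.99%). In Han ++ against Dorset there were none, also in limma voom (all genes 9.78%), without W4 and D6 (8.87%) and with the term (12.5%). Single libraries left out gave 0 to 1 there (1 without D4, W6 or W8, or 2.56% against 8.42%, 3.04% and 3.21%). In limma voom the median log2 fold change of the set moved from -0.336 to -0.615 in Han BB against Dorset, from 0.049 to -0.139 in Han ++ against Dorset, from -0.289 to -0.435 in Han BB against Han ++ and from -0.174 to -0.383 in both Han groups against Dorset. Leaving out single libraries moved the median log2 fold change of the set between -0.469 and -0.099 in Han BB against Dorset, between -0.148 and 0.204 in Han ++ against Dorset, between -0.433 and -0.073 in Han BB against Han ++ and between -0.26 and 0.049 in both Han groups against Dorset, the last being above 0 without D5.

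Some log2 fold changes turned sign, and the cause was not tested. In limma voom PLK4 was -0.105 in Han BB against Dorset and -0.325 against Han ++, TTK -0.261 and PCNA 0.063 in Han BB against Dorset. Without W4 and D6, PLK4 was -0.083 and -0.518 and PCNA 0.158 in the same comparisons. With the term, PLK4 was -0.254 and AURKA -0.049 in Han BB against Han ++, PCNA 0.003 in Han BB against Dorset and TOP2A 0.092 in Han ++ against Dorset. When single libraries were left out, Han BB against Dorset ranged from -0.227 to 1.044 for PLK4, from -0.105 to 0.491 for TTK and from -0.177 to 0.215 for PCNA. Han ++ against Dorset ranged from -0.528 to 0.145 for TOP2A, from -0.295 to 0.686 for CDK1 and from -0.472 to 0.345 for MCM2. Han BB against Han ++ ranged from -0.519 to 0.735 for PLK4, from -0.027 to 0.612 for AURKA, from -0.795 to 0.121 for TOP2A, from -0.318 to 0.662 for CDK1 and from -0.352 to 0.055 for CCNB1. None of these had passed the test. No paired analysis was possible because replicate numbers only name the ewes. With 3 ewes per group, the spread between ewes limits what can be seen. Genes with few reads, such as CDKN2B with 1 to 24 reads per library and AMH with 5 to 50, are limited by depth as well.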
